A study of Homo sapiens with 12 samples.

Results

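The nuclear-encoded subunits of the oxidative phosphorylation complexes were examined in C4-2 cells, an established line of human prostate cancer that descends from the LNCaP line. Members were protein-coding genes chosen by symbol, namely the NDUFA, NDUFB, NDUFC, NDUFS and NDUFV subunits of complex I, the SDH subunits of complex II, UQCR genes and CYC1 of complex III, the COX4 to COX8 subunits of complex IV and the ATP5F1, ATP5M and ATP5P subunits of complex V, the ATP synthase. NDUFA4 and NDUFA4L2 were counted with complex IV. Of 90 such symbols, 89 matched an Ensembl identifier in the count files, NDUFA7 being the exception. A minimum of 50 reads summed over all samples left 81 members of 54127 genes in the files, or of the 16708 genes that reach the same minimum. They comprised 36 genes of complex I, 4 of complex II, 10 of complex III, 14 of complex IV and 17 of complex V. The 8 symbols left out were NDUFC2-KCTD14, COX6A2 and ATP5MF-PTCD1 with 0 reads, COX4I2 with 2, ATP5MGL with 8, COX6B2 and COX7A1 with 18 each and COX8C with 19.

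Cells grown in RPMI with fetal bovine serum were reverse-transfected with 50 nM of an siRNA pool, either against CHKA (labelled SiCHKA, here siCHKA) or nontargeting (labelled SiNTCONTROL, here siNT), and 6 samples of each group were sequenced. All samples are from 1 cell line, the labels give neither the time after transfection nor a sequencing batch, and the siRNA sequences were not used here. The comparison asks how the mRNAs of the respiratory complexes stood after knockdown of CHKA, choline kinase alpha, the enzyme that starts phosphatidylcholine synthesis from choline. The study's own text describes the knockdown samples as biological triplicates in one place and as a larger set of biological replicates in another, and the labels do not say which samples are separate cultures. The p-values and SDs at n = 6 therefore measure the spread between these samples, which may be in part technical.

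Oxidative phosphorylation takes place in the inner mitochondrial membrane. Complexes I and II pass electrons from NADH and succinate to ubiquinone, complex III passes them on to cytochrome c, complex IV to oxygen, and complex V uses the proton gradient built by complexes I, III and IV to make ATP. Complexes I, III, IV and V combine subunits encoded in the nucleus with a few encoded in mitochondrial DNA, whereas complex II is wholly nuclear. Many nuclear subunit genes share promoter elements bound by NRF1, by the ETS factor GABP and by YY1.

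Reads counted on genes ranged from 12158361 to 20670479 in the siCHKA samples and from 10685184 to 24246055 in the siNT samples. Before TMM normalization, 3 counts thus stood for 0.124 to 0.281 per 1e6 of these reads, a floor for counting error only. Levels are given as CPM, the share of a library's TMM-normalized counts, scaled to parts per 1e6. The targeted transcript, CHKA, averaged 2.75 ± 1.03 CPM in the 6 siCHKA samples and 40.7 ± 2.55 CPM in the 6 siNT samples (mean ± SD), a log2 fold change of -3.88 (SE 0.14, adjusted p = 5.89e-13). All 10 prostate epithelial markers examined were expressed, 7 of them lower and 3 higher after siCHKA. Of 14 markers of other cell types, 13 had an identifier and CD3E and DES were at 0 in every sample. Their summed level was 27.0 to 34.6 CPM after siCHKA and 14.2 to 20.9 CPM after siNT, mostly from COL1A1 (26.8 against 15.0 CPM). The 3 that could be tested were higher, COL1A1 and, at low levels, ACTA2 (0.96 against 0.54 CPM) and SYP (1.99 against 1.23 CPM). Those too low to test went in either direction, for example COL3A1 (0.19 against 0.42 CPM) and CDH5 (0.039 against 0 CPM). The part of these markers in the results was not tested. Within the siCHKA group, replicates 1, 3 and 5 stood apart from replicates 2, 4 and 6, although the labels give them no difference, and results that rest on either set are given with and without it. These are bulk samples of relative counts, so a change in the make-up of the cells and a change of RNA per cell cannot be told apart.

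The subunit mRNAs moved little, with 1 large exception. UQCR10, a small subunit of complex III, fell to 30.3% of its siNT level, and COX5A of complex IV, ATP5F1C of complex V and SDHD of complex II fell to between 68.8% and 78.8%. All 81 members passed the expression filter and were tested. At an adjusted p below 0.05, 10 members (12.3%) were lower, 24 (29.6%) were higher and 47 did not pass, against 30.1% lower and 32.1% higher among all 14501 genes tested. The median log2 fold change of the members was 0.044, and that of all genes tested was 0.035. The spread was narrower among members, with 75 of 81 (92.6%) within 0.3 of 0 on the log2 scale against 49.0% of all genes tested. Only UQCR10 was lower by at least 2-fold, against 4.51% of all genes tested, and no member was higher by at least 2-fold, against 5.41%. The groups did not overlap in 7 members that were lower, against 21.5% of all genes tested, and in 3 that were higher, against 19.1%.

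Subunit mRNAs are short, with a median canonical transcript of 763 bases against 3377 bases for all genes tested that have a 3′ UTR. Among the 1415 tested genes with transcripts of 1000 bases or fewer, 14.3% were lower and 35.1% higher, with a median log2 fold change of 0.16. The count of members that rose depended on the siCHKA set. With siCHKA replicates 1, 3 and 5 only, 15 members were lower and 8 higher, beside 4300 and 4408 of all 14694 genes tested. With replicates 2, 4 and 6 only, 11 members were lower and 24 higher, beside 4594 and 4718 of all 14981 genes tested. All 10 falls were called with the first set and 9 of them with the second, whereas 8 and 18 of the 24 rises were. Of the 56 members that share no exon with another tested gene, 8 were lower and 17 higher. Pseudogenes of any kind named after a member exist for 50 of the 81, 189 in all, and reads that aligned equally well to a copy were not counted.

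**Figure D1:**
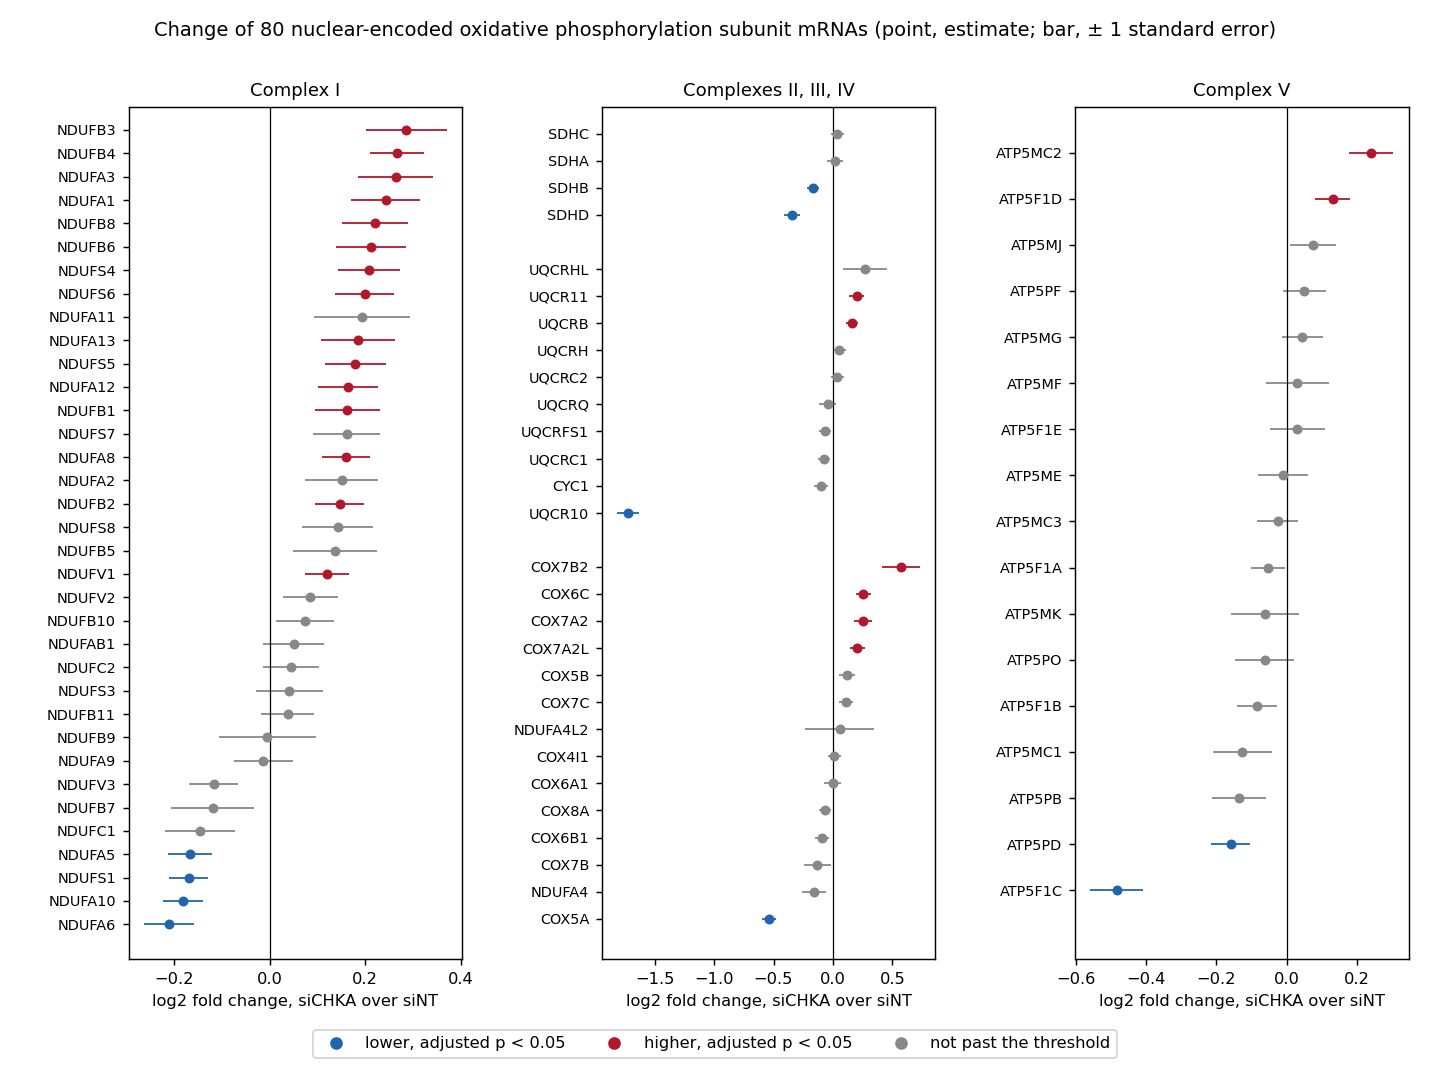
Log2 fold change of siCHKA over siNT for 80 of the 81 subunit mRNAs, by complex, as the edgeR estimate with ± 1 standard error. Blue points are members lower and red points members higher at an adjusted p below 0.05, and the horizontal scale differs between the panels, the middle one reaching to UQCR10 at -1.72.

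Complex I, the NADH dehydrogenase, held most of the rises. Of its 36 members, 16 (44.4%) were higher and 4 (11.1%) lower, against 32.1% and 30.1% of all genes tested. Among tested genes with transcripts of 1000 bases or fewer, 35.1% were higher and 14.3% lower. The median log2 fold change was 0.14 in complex I and 0.16 in those short genes. The 29 accessory subunits, which surround the catalytic core, held 3 falls and 14 rises. By series, 6 of 11 NDUFB and 5 of 12 NDUFA genes were higher, and neither NDUFC gene passed the test. Without siNT replicate 5, 10 complex I members were higher in place of 16, and with siCHKA replicates 1, 3 and 5 only there were 6.

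NDUFB4, an accessory subunit of the membrane arm and the most abundant complex I mRNA per kilobase, was at 437, 437, 422, 442, 414 and 421 CPM after siCHKA and at 358, 368, 392, 381, 317 and 323 CPM after siNT. Every siCHKA sample was above every siNT sample, and the log2 fold change was 0.27 (SE 0.06, adjusted p = 0.00062). NDUFB3, another membrane arm subunit, ranged from 68.0 to 86.8 CPM after siCHKA (median 72.4) and from 51.6 to 72.3 CPM after siNT (median 62.7), overlapping between the groups, with a log2 fold change of 0.29 (SE 0.08, adjusted p = 0.00736). NDUFB3 shares exon sequence with HYCC2 on the opposite strand, which rose by 0.26 on the log2 scale. A further 13 complex I mRNAs that rose were NDUFA1, NDUFA3, NDUFA8, NDUFA12, NDUFA13, NDUFB1, NDUFB2, NDUFB6, NDUFB8, NDUFS4, NDUFS5, NDUFS6 and NDUFV1, with log2 fold changes from 0.12 (NDUFV1) to 0.26 (NDUFA3).

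The 4 falls in complex I were small. NDUFS1, the largest core subunit and a carrier of iron-sulfur clusters, was at 223, 224, 222, 214, 222 and 209 CPM after siCHKA and at 247, 242, 252, 249, 244 and 244 CPM after siNT. The groups were separate, and the log2 fold change was -0.17 (SE 0.04, adjusted p = 0.00157). NDUFS1 shares exon sequence with a long noncoding RNA on the opposite strand (ENSG00000231955), which averaged 3.46 CPM. NDUFA10, an accessory subunit, ranged from 90.5 to 99.0 CPM after siCHKA (median 96.3) and from 104 to 114 CPM after siNT (median 109), with a log2 fold change of -0.18 (SE 0.04, adjusted p = 0.00119). NDUFA6, an accessory subunit, ranged from 108 to 117 CPM after siCHKA (median 111) and from 116 to 146 CPM after siNT (median 129). Its groups overlapped at 1 sample each, and its log2 fold change was -0.21 (SE 0.05, adjusted p = 0.00227). NDUFA5, also an accessory subunit, had a log2 fold change of -0.17 (SE 0.05, adjusted p = 0.00471) with separate groups. The 16 members that did not pass had log2 fold changes from -0.15 (NDUFC1) to 0.19 (NDUFA11).

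Complex II, succinate dehydrogenase, links the citric acid cycle to the respiratory chain. Of its 4 subunits, 2 fell, beside 30.1% of all genes tested. SDHD, a membrane anchor that holds the ubiquinone site, was at 141, 153, 120, 151, 126 and 137 CPM after siCHKA and at 182, 177, 190, 183, 156 and 162 CPM after siNT. The highest siCHKA sample lay just under the lowest siNT sample, and the log2 fold change was -0.34 (SE 0.07, adjusted p = 0.000265). SDHB, the iron-sulfur subunit, was at 134, 138, 130, 135, 124 and 131 CPM after siCHKA and at 146, 153, 162, 154, 136 and 140 CPM after siNT. Its groups overlapped slightly, with a log2 fold change of -0.17 (SE 0.05, adjusted p = 0.00742).

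The other subunits of complex II did not pass the test. SDHA, the flavoprotein that oxidizes succinate, had a log2 fold change of 0.02 (SE 0.07, adjusted p = 0.848) and SDHC, the second membrane anchor, one of 0.04 (SE 0.05, adjusted p = 0.561). SDHA was at 178, 188 and 182 CPM in siCHKA replicates 1, 3 and 5 and at 150, 150 and 163 CPM in replicates 2, 4 and 6, around the siNT range of 153 to 179 CPM. The 2 siCHKA sets thus lay on opposite sides of the siNT median of 170 CPM. The fall of SDHD was larger in replicates 1, 3 and 5, which averaged 129 CPM, than in replicates 2, 4 and 6, which averaged 147 CPM, and each set alone kept the call.

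Complex III, the cytochrome bc1 complex, held the largest change of any member. UQCR10 (ENSG00000184076, GRCh38 chromosome 22 from 29767369 to 29770413, plus strand) encodes a small subunit without a redox centre that lies against cytochrome c1 and the Rieske protein. It was measured at 45.9, 59.4, 47.9, 59.3, 44.2 and 55.1 CPM in siCHKA replicates 1 to 6. In siNT replicates 1 to 6 it was at 181, 184, 204, 159, 151 and 151 CPM. The gap between the groups was wider than the whole spread within either group, and the siCHKA mean of 52.0 ± 6.80 CPM (SD, n = 6) stood against a siNT mean of 172 ± 21.7 CPM (SD, n = 6). The log2 fold change was -1.72 (SE 0.09, adjusted p = 5.82e-11). ZMAT5, the nearest tested gene, starts 358 bases away on the opposite strand and had a log2 fold change of 0.22 (SE 0.07, adjusted p = 0.011). ASCC2 and MTMR3, 18196 and 112756 bases away, did not pass (-0.11 and 0.14 on the log2 scale, adjusted p = 0.0636 and 0.192), while NF2, on the same strand as UQCR10 and 68771 bases away, was also lower, with a log2 fold change of -1.51 (SE 0.07, adjusted p = 4.80e-12). UQCR10 shares no exon with another tested gene.

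The 3′ UTR of UQCR10 holds a word that went with lower levels across genes in an earlier analysis of these same samples, so its presence is not independent evidence. The 30 bases around it are shown because they lie in the member that fell most, at chr22:29769925-29769954 (GRCh38, plus strand, GENCODE release 44), with the word in capitals.
UQCR10 3′ UTR: taaatgtgaatTGCCCTTgagacctgcttc
The word starts at base 217 of the 694 bases of the 3′ UTR. That word or the other word of the same earlier analysis, GCCAGAT, was found in the 3′ UTR of 10 of 81 members (12.3%) and in 23.6% of 12319 tested genes, while the median 3′ UTR length was 192 bases for members and 1326 bases for those genes. The members were NDUFA9, NDUFA10, NDUFC2, NDUFS1, NDUFV3, UQCR10, UQCRB, UQCRC2, ATP5F1E and ATP5MC3. Of these, 3 were lower (UQCR10, NDUFA10 and NDUFS1), 1 was higher (UQCRB) and 6 did not pass, and of the other 71 members 7 were lower and 23 higher.

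The remaining members of complex III changed little. UQCR11, a small subunit, ranged from 171 to 205 CPM after siCHKA (median 187) and from 144 to 182 CPM after siNT (median 169), with a log2 fold change of 0.20 (SE 0.06, adjusted p = 0.0135). UQCRB, which lies near a ubiquinone-binding site, ranged from 221 to 245 CPM after siCHKA (median 233) and from 193 to 233 CPM after siNT (median 204), with a log2 fold change of 0.16 (SE 0.05, adjusted p = 0.0134). Both overlapped between the groups, and neither passed with siCHKA replicates 1, 3 and 5 only (adjusted p = 0.162 for UQCR11 and 0.0664 for UQCRB). The redox subunits CYC1 (cytochrome c1) and UQCRFS1 (the Rieske iron-sulfur protein) had log2 fold changes of -0.10 and -0.07, and the core proteins UQCRC1 and UQCRC2 had -0.07 and 0.04, and none of these passed. UQCRH, a hinge protein, was at 293 ± 12.8 CPM after siCHKA and 283 ± 18.2 CPM after siNT (SD, n = 6 each), and its retrotransposed copy UQCRHL was at 2.85 ± 0.57 and 2.35 ± 0.71 CPM. The reads of UQCRH and UQCRHL are uncertain because their sequences are nearly the same.

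Complex IV, cytochrome c oxidase, held 1 fall (7.14%) and 4 rises (28.6%) among its 14 members, against 30.1% and 32.1% of all genes tested. COX5A, a subunit of the matrix side that every form of the enzyme contains, was at 188, 192, 174, 181, 177 and 181 CPM after siCHKA and at 276, 269, 293, 279, 235 and 236 CPM after siNT. The groups were far apart, with a log2 fold change of -0.54 (SE 0.06, adjusted p = 4.89e-07). COX5B, the zinc-binding subunit beside it, had a log2 fold change of 0.12 (SE 0.07, adjusted p = 0.137). COX6C, a small membrane subunit, was at 206, 231, 190, 226, 182 and 198 CPM after siCHKA and at 178, 174, 183, 175, 159 and 164 CPM after siNT, overlapping at 1 sample of each group, with a log2 fold change of 0.25 (SE 0.06, adjusted p = 0.00185). COX6C has 17 pseudogenes named after it, more than UQCR10 (1), COX5A (2) or SDHD (6). NDUFB4, which rose, and NDUFA5, which fell, have 12 each, and COX7A2L, which rose, has 0. The part of pseudogenes in the calls was not tested.

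Several subunits of complex IV exist as tissue isoforms, and C4-2 cells expressed the ubiquitous forms. COX4I1, COX6A1, COX6B1 and COX8A were at 429, 106, 545 and 400 CPM per kilobase of transcript in siNT samples, whereas their heart, muscle, lung or testis counterparts COX4I2, COX6A2, COX6B2 and COX8C stayed under the minimum of 50 reads. None of these 4 expressed forms passed the test, with log2 fold changes from -0.09 (COX6B1) to 0.01 (COX4I1). COX7A2, the form of COX7A found outside muscle, ranged from 163 to 216 CPM after siCHKA (median 179) and from 140 to 176 CPM after siNT (median 158), a log2 fold change of 0.25 (SE 0.08, adjusted p = 0.00925). COX7A2L, a relative that helps join complexes III and IV into supercomplexes, ranged from 81.7 to 96.8 CPM after siCHKA (median 89.5) and from 64.7 to 85.8 CPM after siNT (median 80.4), a log2 fold change of 0.21 (SE 0.07, adjusted p = 0.0121). Both overlapped between the groups, and neither passed with siCHKA replicates 1, 3 and 5 only (adjusted p = 0.136 and 0.0964).

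COX7B was at 102 and COX7B2 at 5.29 CPM per kilobase in siNT samples. COX7B2, a form known from testis, was at 4.42 ± 0.76 CPM after siCHKA and 2.94 ± 0.78 CPM after siNT (SD, n = 6 each), a log2 fold change of 0.57 (SE 0.16, adjusted p = 0.00558), the largest rise of any member and at a low level. It did not pass with siCHKA replicates 1, 3 and 5 only (adjusted p = 0.0514). NDUFA4, which despite its name belongs to complex IV, and its hypoxia-responsive relative NDUFA4L2 did not pass over all samples, with log2 fold changes of -0.16 (SE 0.10, adjusted p = 0.18) and 0.06 (SE 0.29, adjusted p = 0.882).

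NDUFA4L2 differed most between the siCHKA sets. It was at 2.31, 2.06 and 2.99 CPM in siCHKA replicates 1, 3 and 5, at 7.10, 6.01 and 5.90 CPM in replicates 2, 4 and 6, and from 2.98 to 6.91 CPM in the siNT samples. The 2 sets thus lay at opposite ends of the siNT range. Against all siNT samples, the first set alone gave a log2 fold change of -0.83 and the second alone 0.56. NDUFA4 and COX7B did not pass over all samples and were at -0.33 and -0.32 on the log2 scale with the first set alone. The sets were found in these same data, so these values are descriptions and not tests. NDUFA4L2 shares exon sequence with SHMT2 on the opposite strand, whose mean was 389 CPM, so its low counts are uncertain.

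Complex V held 2 falls and 2 rises among 17 members (11.8% each), against 30.1% and 32.1% of all genes tested. None of the other 13 members had a log2 fold change outside -0.14 (ATP5PB) to 0.08 (ATP5MJ). ATP5F1C, the gamma subunit that forms the rotating shaft of the F1 part, was at 261, 306, 240, 299, 247 and 287 CPM after siCHKA and at 407, 398, 426, 388, 343 and 333 CPM after siNT. The groups did not overlap, and the log2 fold change was -0.48 (SE 0.07, adjusted p = 2.63e-05). Within siCHKA, replicates 1, 3 and 5 averaged 250 CPM and replicates 2, 4 and 6 averaged 297 CPM, both below the lowest siNT sample. The alpha and beta subunits that form the catalytic ring around it, ATP5F1A and ATP5F1B, had log2 fold changes of -0.05 (SE 0.05, adjusted p = 0.364) and -0.08 (SE 0.06, adjusted p = 0.213). ATP5F1B was the most abundant member per kilobase, at 1517 CPM per kilobase in siNT samples, with COX7C next at 608.

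The c subunit of the membrane ring is encoded by 3 genes that give the same mature protein. ATP5MC2 was at 263, 294, 245, 289, 246 and 274 CPM after siCHKA and at 239, 242, 245, 203, 210 and 225 CPM after siNT. The lowest siCHKA sample lay just above the highest siNT sample, with a log2 fold change of 0.24 (SE 0.06, adjusted p = 0.00322), but the call was lost with siCHKA replicates 1, 3 and 5 only (adjusted p = 0.0659). ATP5MC1 and ATP5MC3 did not pass, with log2 fold changes of -0.13 (SE 0.08) and -0.03 (SE 0.06). In siNT samples the 3 genes were at 360 (ATP5MC2), 203 (ATP5MC1) and 136 (ATP5MC3) CPM per kilobase. This order rests on the canonical lengths, 632, 646 and 2587 bases in the same order. Not divided by length, ATP5MC3 was highest, at a mean of 352 CPM against 227 for ATP5MC2 and 131 for ATP5MC1.

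ATP5PD, a subunit of the peripheral stalk that holds F1 in place, ranged from 179 to 203 CPM after siCHKA (median 191) and from 194 to 241 CPM after siNT (median 213), with a log2 fold change of -0.16 (SE 0.06, adjusted p = 0.0202), and it did not pass with siCHKA replicates 2, 4 and 6 only (adjusted p = 0.0741). It shares exon sequence with KCTD2 on the opposite strand, which had a log2 fold change of -0.01. ATP5F1D, the delta subunit at the foot of the shaft, ranged from 123 to 133 CPM after siCHKA (median 127) and from 108 to 130 CPM after siNT (median 116), with a log2 fold change of 0.13 (SE 0.05, adjusted p = 0.0292). This was the least stable call, since it was lost when siCHKA replicate 3 (adjusted p = 0.0586) or 5 (0.0635) or siNT replicate 1 (0.0726), 4 (0.0972), 5 (0.0526) or 6 (0.0756) was left out. Complex V then held 1 rise, ATP5MC2.

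Summed over their members, the complexes differed little between the groups. The summed CPM of complex I was 4779 ± 145 after siCHKA and 4468 ± 324 after siNT (SD, n = 6 each), a ratio of 1.07. The ratio was 0.934 for complex II, 0.957 for complex III, 0.984 for complex IV and 0.956 for complex V. Without UQCR10, complex III had a ratio of 1.01. All 81 members together summed to 17156 ± 473 CPM after siCHKA and 17355 ± 1146 CPM after siNT, a ratio of 0.989. The sums of siNT replicates 5 and 6 (15863 and 16012 CPM) were the lowest of the 12 samples, and the other siNT samples ranged from 17736 to 18640 CPM. The siCHKA samples ranged from 16653 to 17771 CPM. Per kilobase of transcript, the median member of complexes I to V stood at 125, 139, 155, 224 and 253 CPM in siNT samples and at 137, 117, 143, 199 and 248 CPM in siCHKA samples.

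**Figure D2:**
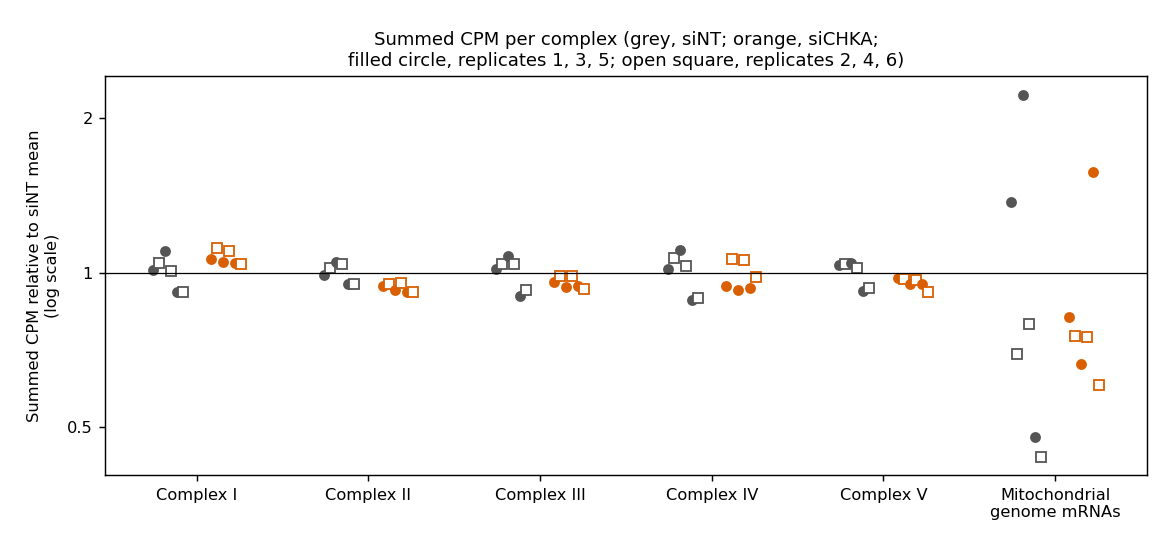
Summed CPM of the nuclear-encoded members of each complex and of the 13 mitochondrial genome mRNAs in each sample, divided by the siNT mean, on a log scale. The nuclear sums stay near 1 in both groups, whereas the mitochondrial genome mRNAs ranged from 4679 to 23772 CPM within siNT alone.

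The siCHKA sets differed in many members. In 27 members (33.3%) replicates 1, 3 and 5 all lay below replicates 2, 4 and 6, and in 7 (8.64%) all lay above, against 22.9% and 24.6% of all genes tested. Complex IV differed most as a sum, replicates 1, 3 and 5 being at 0.903 of replicates 2, 4 and 6, and its members with the first set lower throughout were NDUFA4L2, COX7B, NDUFA4, COX7A2, COX6A1, COX5B and COX7C. The members higher in replicates 1, 3 and 5 were SDHA, ATP5F1B, NDUFS6, UQCRC1, UQCRFS1, NDUFC2 and NDUFA8. ATP5F1B averaged 2691 CPM in replicates 1, 3 and 5 and 2344 CPM in replicates 2, 4 and 6. These values describe sets found in the data and are not a comparison of treatments.

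**Figure D3:**
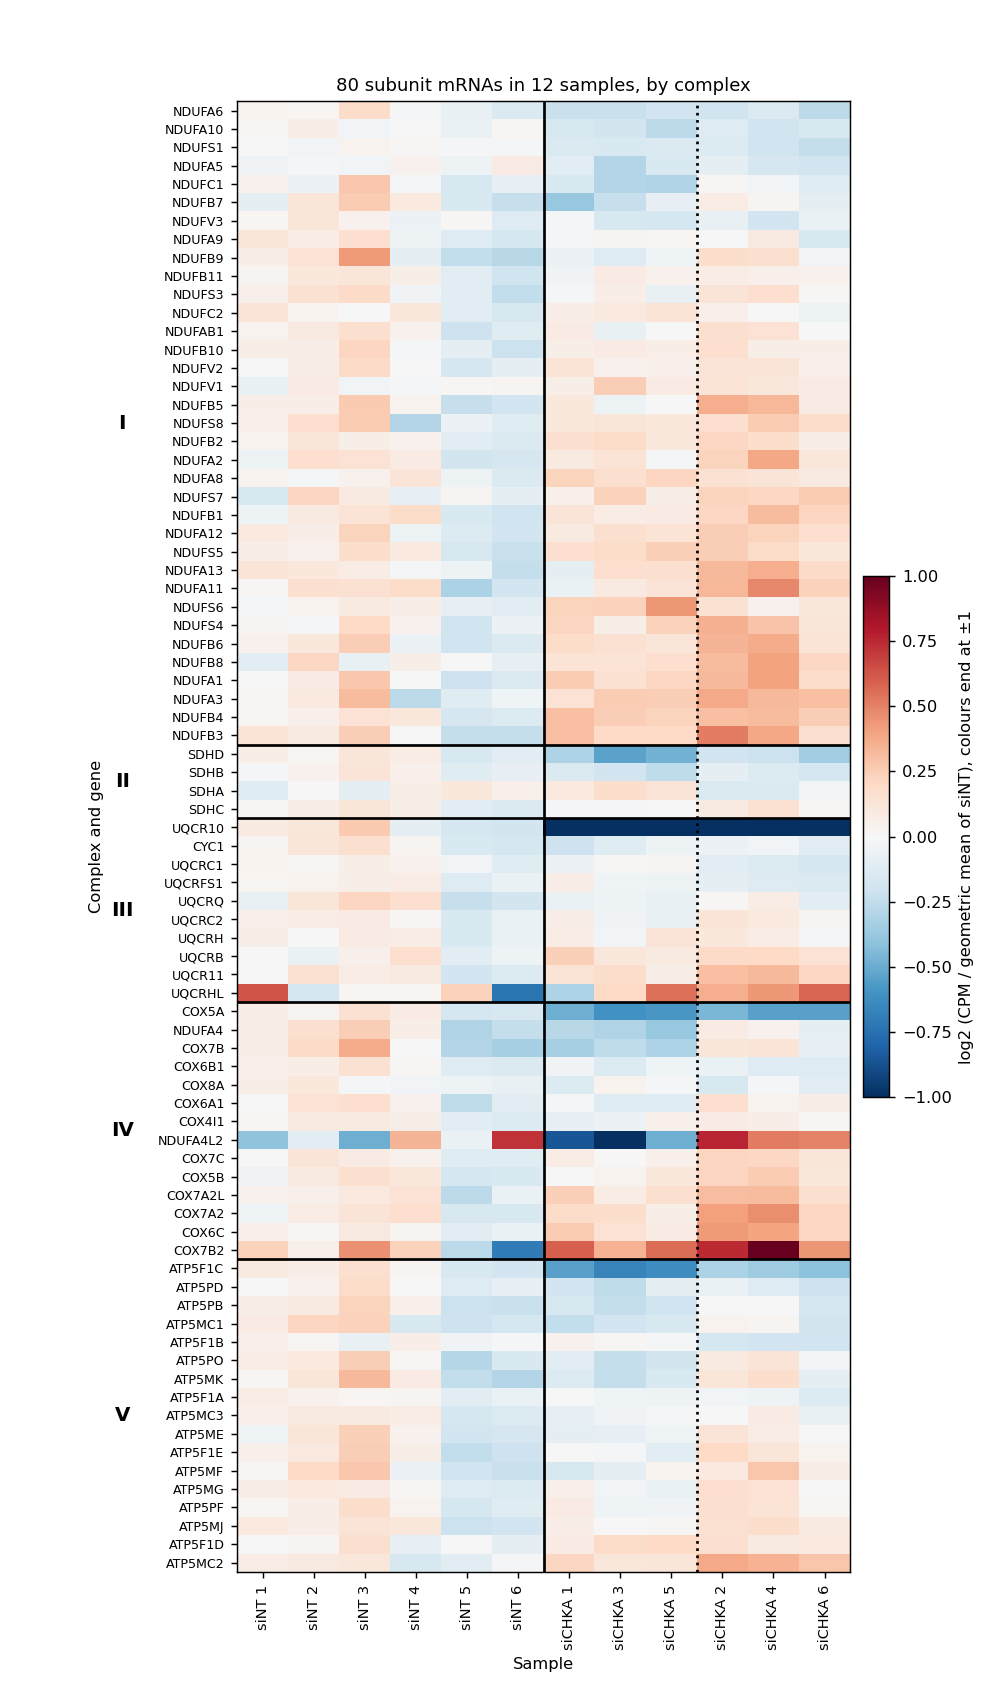
Log2 ratio of CPM to the geometric mean of the siNT samples for 80 members (rows, by complex) in 12 samples (columns), with the siCHKA replicates ordered 1, 3, 5 and then 2, 4, 6 and colours ending at ±1. UQCR10 is dark blue in all siCHKA columns, most rows are pale, and siNT replicates 5 and 6 are below the siNT mean in most rows.

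The 13 mRNAs of the mitochondrial genome, which encode the partner subunits of complexes I, III, IV and V, gave no call. Their log2 fold changes ranged from -0.49 (MT-ND6) to -0.13 (MT-CO1), all with standard errors of 0.29 or more. Their summed level ranged from 6470 to 16817 CPM after siCHKA and from 4679 to 23772 CPM after siNT, so a difference as small as those of most nuclear members was not detectable in them.

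Other genes of the pathway were taken from lists chosen with earlier results of these data known. Beside the counts of each list stand 30.1% lower and 32.1% higher among all genes tested. Over the 6 lists of nuclear genes, the share of genes within 0.3 of 0 on the log2 scale was lowest for the regulators (47.1%). It was highest for the citric acid cycle and pyruvate enzymes (73.7%), beside 92.6% of the members. Of 51 tested assembly factors, which build the complexes but are not part of them, 12 (23.5%) were lower and 22 (43.1%) higher. Their median log2 fold change was 0.16. ATPAF1, which helps assemble the F1 part of ATP synthase, fell from 220 ± 7.99 to 108 ± 4.99 CPM (SD, n = 6 each), with log2 fold change -1.03 (SE 0.05, adjusted p = 5.66e-12). ATPAF2, its partner for the alpha subunit, rose by 0.32 on the log2 scale (adjusted p = 3.18e-05). COX10, which makes heme for complex IV, CMC2 and LYRM7, a Rieske protein chaperone, had log2 fold changes of -0.69, -0.57 and -0.35. The complex I factors NDUFAF1 and NDUFAF7 rose by 0.65 and 0.49 and the complex II factor SDHAF4 by 0.79 on the log2 scale.

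Of 18 mobile carriers and other electron inputs, 8 (44.4%) were lower and 6 (33.3%) higher, with a median log2 fold change of -0.09. GPD2, the glycerol-3-phosphate dehydrogenase of the inner membrane, changed by -0.80 on the log2 scale (adjusted p = 1.12e-07), and the ubiquinone synthesis genes COQ8B, PDSS1 and COQ2 had -0.68, -0.68 and -0.32. ETFDH and ETFB, which bring in electrons from fatty acid oxidation, rose by 0.67 and 0.31 on the log2 scale, and the ubiquinone synthesis genes COQ5 and COQ4 by 0.27 and 0.35. ETFA, the partner of ETFB in the electron transfer flavoprotein, went the other way (-0.19 on the log2 scale, adjusted p = 0.00698). CYCS, cytochrome c itself, chosen after its values were seen, fell from 678 ± 64.5 to 523 ± 26.1 CPM (SD, n = 6 each), with log2 fold change -0.37 (SE 0.06, adjusted p = 7.22e-05).

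Of 8 genes of the ATP synthase inhibitor and the carriers that supply it, 4 (50.0%) were lower and 2 (25.0%) higher. The ADP/ATP carrier SLC25A5, the phosphate carrier SLC25A3 and the outer membrane channels VDAC1 and VDAC2 had log2 fold changes of -0.34, -0.24, -0.35 and -0.23. The other ADP/ATP carriers SLC25A4 and SLC25A6 rose by 0.39 and 0.23. ATP5IF1, the inhibitor, did not pass, with a log2 fold change of 0.04.

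The citric acid cycle list of 19 genes also holds enzymes that act on pyruvate (PDHA1, PDHB, PDHX, DLAT and PC). Of these 19 genes, 7 (36.8%) were lower and 4 (21.1%) higher, with a median log2 fold change of -0.02. IDH2, the NADP-dependent isocitrate dehydrogenase, had the largest fall (-4.02 on the log2 scale), and the other falls with the smallest p were those of DLAT (-0.71), IDH3A (-0.57) and PC (-0.30). IDH3G, MDH2, PDHB and DLD rose by 0.52, 0.34, 0.14 and 0.13. Of 25 import machinery genes, 13 (52.0%) were lower and 1 (4.0%) higher, with a median log2 fold change of -0.14. TOMM34, TOMM40, TIMM22 and the matrix chaperone HSPA9 had log2 fold changes of -0.83, -0.52, -0.50 and -0.36, and TOMM7 rose by 0.55.

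**Figure D4:**
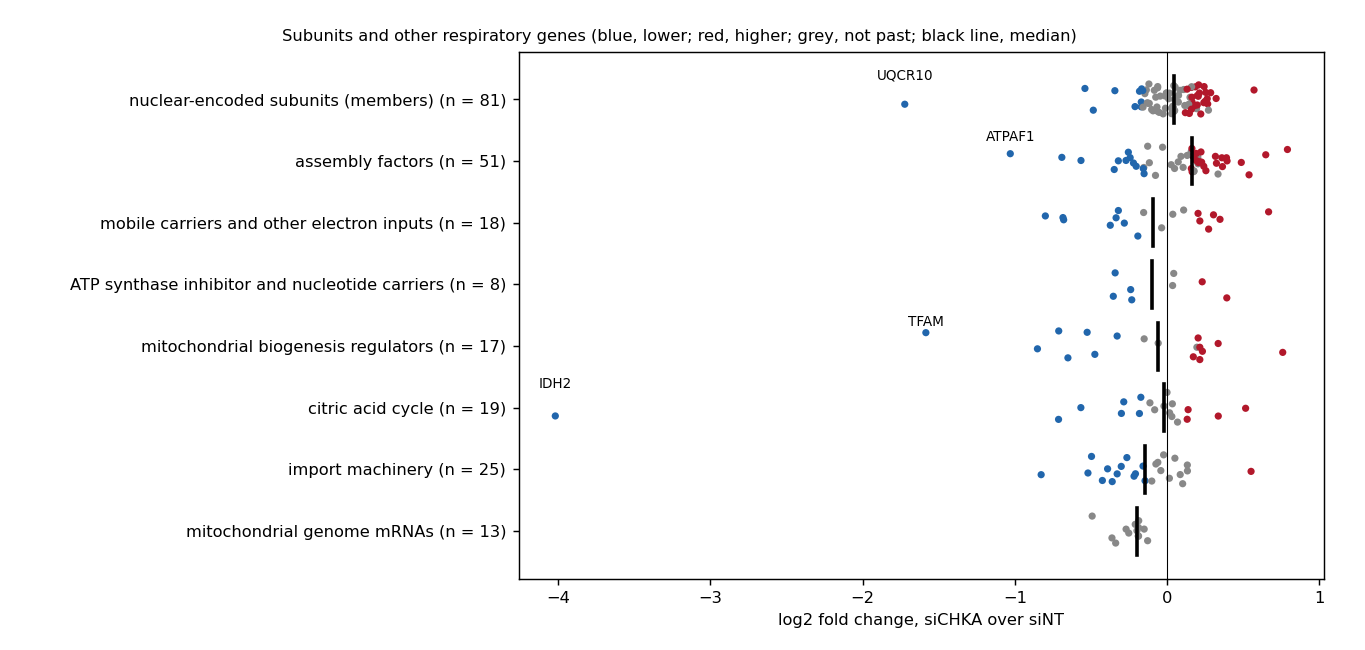
Log2 fold change of siCHKA over siNT for each tested gene of the subunits and of the 7 other lists, with the median as a black line, lower calls in blue and higher calls in red. The 81 subunits cluster near 0 apart from UQCR10 at -1.72, while TFAM (-1.58), ATPAF1 (-1.03) and IDH2 (-4.02) lie far to the left in their lists.

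Regulators of mitochondrial and respiratory gene expression changed in both directions. Of 17 genes, 7 were lower and 7 higher (41.2% each), with a median log2 fold change of -0.06. TFAM, which packages and transcribes mitochondrial DNA, fell from 191 ± 7.06 to 63.7 ± 8.68 CPM (SD, n = 6 each), with log2 fold change -1.58 (SE 0.08, adjusted p = 1.15e-11). NRF1 fell from 22.7 ± 2.01 to 12.6 ± 1.29 CPM (log2 fold change -0.85, adjusted p = 7.28e-08), YY1 from 191 ± 14.1 to 116 ± 8.97 CPM (log2 fold change -0.71, adjusted p = 2.72e-08) and GABPB1, a GABP subunit, from 51.4 ± 2.09 to 37.0 ± 2.04 CPM (log2 fold change -0.47, adjusted p = 3.17e-07). Of the other GABP subunits, GABPA was lower (log2 fold change -0.33, adjusted p = 0.000163) and GABPB2 higher (0.22, adjusted p = 0.0127). MTERF1, TFB1M, ESRRA and POLRMT rose by 0.76, 0.34, 0.22 and 0.20 on the log2 scale.

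Because NRF1, YY1, GABPA and GABPB1 fell, the promoters of the members were searched on both strands for short elements. These were short forms of the ETS (CCGGAAG), NRF1 (GCGCATGC) and YY1 (CAAGATGGC) elements. RefSeq promoters (GRCh38.p14, from 250 bases before to 50 bases after the start) were matched by symbol for 65 of the 81 members. The ETS element was present in 20 of the 65 (30.8%), against 19.3% of 10594 tested genes and 10.7% of all 27305 promoters. The NRF1 element was present in 13 of the 65, against 5.72% and 3.27%, and the YY1 element in 5 (7.69%), against 2.66% and 1.48%. Among the 10 members that fell, the ETS and NRF1 elements were each present in 4 and the YY1 element in 2, and among the 19 members that rose and have a promoter they were present in 3, 4 and 1. Among the 36 that did not pass, they were present in 13, 5 and 2. The elements thus occurred among members of either direction, and a match is a description of letters only.

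The bases before the start of 5 members are shown, with matches in capitals. UQCR10 is shown because it fell most, and the other four because they carry the NRF1 element and moved in either direction, so they do not stand for all members that fell.
SDHD (chr11:112086623-112086872, plus strand): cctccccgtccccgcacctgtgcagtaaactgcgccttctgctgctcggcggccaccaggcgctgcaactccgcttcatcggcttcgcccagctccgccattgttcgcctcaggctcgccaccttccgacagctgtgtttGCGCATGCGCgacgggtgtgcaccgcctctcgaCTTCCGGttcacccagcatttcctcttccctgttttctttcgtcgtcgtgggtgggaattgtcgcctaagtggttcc
SDHB (chr1:17054033-17054282, minus strand): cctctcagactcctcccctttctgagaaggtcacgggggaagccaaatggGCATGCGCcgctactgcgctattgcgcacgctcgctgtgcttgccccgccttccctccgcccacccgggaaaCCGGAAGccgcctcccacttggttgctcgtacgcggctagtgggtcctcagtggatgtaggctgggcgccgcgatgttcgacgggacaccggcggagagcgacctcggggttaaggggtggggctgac
ATP5F1C (chr10:7787927-7788176, plus strand): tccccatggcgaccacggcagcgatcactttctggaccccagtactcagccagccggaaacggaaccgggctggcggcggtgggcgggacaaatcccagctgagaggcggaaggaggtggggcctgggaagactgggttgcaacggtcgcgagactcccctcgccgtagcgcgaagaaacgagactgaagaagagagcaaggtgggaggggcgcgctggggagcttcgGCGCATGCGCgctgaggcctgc
NDUFB4 (chr3:120596086-120596335, plus strand): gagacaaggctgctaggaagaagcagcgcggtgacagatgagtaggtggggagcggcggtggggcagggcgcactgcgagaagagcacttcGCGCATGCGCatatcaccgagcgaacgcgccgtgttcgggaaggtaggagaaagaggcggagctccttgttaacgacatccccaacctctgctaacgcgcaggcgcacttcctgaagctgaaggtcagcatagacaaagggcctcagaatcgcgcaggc
UQCR10 (chr22:29767119-29767368, plus strand): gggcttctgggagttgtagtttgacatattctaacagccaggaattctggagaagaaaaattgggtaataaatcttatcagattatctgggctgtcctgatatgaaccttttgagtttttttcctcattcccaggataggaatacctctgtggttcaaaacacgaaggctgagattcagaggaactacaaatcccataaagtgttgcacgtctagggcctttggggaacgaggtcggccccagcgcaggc
In SDHD, ATP5F1C and NDUFB4 the NRF1 element matched on both strands in overlapping positions, starting 110, 22 and 159 bases before the start of the transcript. SDHD and ATP5F1C fell and NDUFB4 rose. SDHB carried all 3 elements, with the YY1 element 10 bases after the start. None of the 3 short forms was found in the window of UQCR10, the member that fell most. The same held for COX5A, the next largest fall, which is not shown. Only these exact letters were searched, so variants of the elements may be present in either window.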

How the data were processed

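RNA from 12 samples of C4-2 cells was sequenced as single-end reads of 40 bases. Per the labels and the study's methods, alignment by the authors used TopHat2 2.0.4 and GRCh37, and they counted reads on Ensembl release 64 genes with HTSeq 0.5.3p9 and deposited raw counts per gene. The 4 count files of each sample were summed here. Reads with several alignments (26.1% to 30.6% of the total recorded) and reads assigned to more than 1 gene do not enter these counts, and strandedness is not stated. The authors' own test used DESeq 1.10.1 and its values were not used. Symbols came from GENCODE release 44, matched on Ensembl identifiers (82.8% found), whose GRCh38 coordinates are printed. The counts were tested with the quasi-likelihood test of edgeR 4.0.16 (R 4.3.3), after filterByExpr and TMM normalization and with group as the only term (Benjamini-Hochberg adjustment over all 14501 genes tested, threshold 0.05). CPM per kilobase divides by the length of the canonical transcript. The standard error of a log2 fold change is its size divided by the square root of F. Replicate numbers come from the sample titles, and groups from the labels.

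1 member is included in the counts and sums and is not reported here by itself. The members and lists were chosen with earlier results of these data known. Named members were the 3 largest falls and the 3 largest rises per complex among those past the threshold with a mean of at least 10 CPM, all members of complex II, all isoform pairs and CHKA, and in each other list at most the 4 with the smallest p in each direction. NDUFA5, the remaining members past the threshold and the other members given by value were added to account for all members. Single further genes of the other lists, such as CYCS, ETFA, GABPA and GABPB2, were also given. Alternatives were RLE normalization, DESeq2 1.42.0, no filter, a minimum of 10 counts per sample, a block for the replicate number, each siCHKA set alone, each replicate left out, 1 count file per sample and a 2-fold minimum. The fits were tested on simulated counts. Python 3.11.15 was used for the remaining steps.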

Additional observations from a re-analysis of the deposited data

Results flagged for a closer look

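Dixon's test at the 95% level was run in 78 groups of 6 samples, namely each named member, each complex sum and CHKA in each treatment. It flagged no sample there, where chance alone would give about 3.9. The members not named and the mitochondrial genome sum were not examined in this way. In that sum, siCHKA replicate 5 was at 16817 CPM, against 6470 to 8758 CPM in the other siCHKA samples.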

How the results depend on the processing

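Over 20 refits, 12 of the 20 named members past the threshold kept their call in all, among them UQCR10 (log2 fold change -1.90 to -1.58), COX5A (-0.58 to -0.47), ATP5F1C (-0.61 to -0.37) and SDHD (-0.44 to -0.26). Without an expression filter, 14 members were higher, with 8 in complex I, 1 in complex III and 1 in complex V. Of all 32250 genes tested in that fit, 4781 were higher. With siCHKA replicates 1, 3 and 5 only, 8 members were higher, with 6 in complex I, 0 in complex III, 1 in complex IV and 1 in complex V, and 4 in complex IV were lower. With replicates 2, 4 and 6 only, 2 in complex III were lower and 1 in complex V was higher. With 1 count file per sample, complex V held 1 fall and 1 rise. A 2-fold minimum left 1 fall and 0 rises. With single replicates left out, 10 to 17 members of complex I and 1 to 2 of complex V were higher, and 17 to 25 members in all were, the lowest without siNT replicate 5.

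Values near 0 on the log2 scale changed sign. They were COX4I1 (-0.019 without a filter, -0.030 with siCHKA replicates 1, 3 and 5 only), SDHA (-0.014 without a filter, -0.12 with replicates 2, 4 and 6 only), SDHC (-0.0062 with replicates 1, 3 and 5 only), COX6A1 (0.022 with at least 10 counts, 0.075 with replicates 2, 4 and 6 only, 0.031 with 1 count file), COX7B (0.028 with replicates 2, 4 and 6 only), ATP5MC3 (0.021 with 1 count file) and NDUFA4L2 (-0.83 with replicates 1, 3 and 5 only). With single replicates left out, COX4I1 ranged from -0.021 to 0.028, COX6A1 from -0.055 to 0.024, SDHA from -0.019 to 0.049 and NDUFA4L2 from -0.14 to 0.21. The cause of these shifts was not tested.

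Same-numbered samples had correlations from -0.40 to 0.32 in their deviations from the group means (mean -0.04), and 2 of 6 pairs were over 0.1. This gave no sign of pairing by replicate number. With 6 pairs and the siCHKA sets standing apart, it cannot exclude pairing. With the replicate number as a block, 10 members were lower and 24 higher, 22 of the latter shared with the fit without it, and NDUFA4L2 was at -0.023. The analysis concerns mRNA in 1 cell line, and 3 members (UQCRHL, COX7B2 and NDUFA4L2) had means under 10 CPM, where counts limit precision.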
